A study of Mus musculus with 20 samples.

Results

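The D-type cyclins, their kinases and the Myc family were examined as 10 genes in mouse breast tumors driven by Her2/neu. They were Ccnd1, Ccnd2, Ccnd3, Cdk4, Cdk6, Cdkn1b, Myc, Mycn, Mycl and Max, chosen by gene symbol among the 43346 genes of a count table, and all 10 passed the filter that left 18883 genes for testing. RNA was sequenced from 20 late-stage tumors, 1 from each of 20 female F1 mice of the cross between BALB/c-neuT and FVB/J. Every tumor carried the same driver, a rat Her2/neu oncogene brought in by the BALB/c parent, and no normal mammary tissue was included. Tumors were taken when a mouse carried a large mass at an age of a few months, and the transgene of BALB/c-neuT mice is driven by the promoter of mouse mammary tumor virus, which is active in mammary epithelium. Sample names carry Lo (9 tumors) or Hi (11 tumors), a label that the sources do not explain, and tumors are called here by the number in their names.

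Cyclins D1, D2 and D3 bind the kinases CDK4 and CDK6, and the pair phosphorylates the retinoblastoma protein, which releases E2F factors to switch on genes of DNA replication. The inhibitor p27, made from Cdkn1b, binds cyclin and kinase complexes. Myc, N-Myc and L-Myc pair with Max to bind the E-box, and Mxd proteins, Mxi1, Mnt and Mga compete for Max. Cyclin D1 is required for mammary tumors driven by Her2/neu in mice, and Myc drives ribosome production and growth.

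Total counts ranged from 38765682 to 65465755 per tumor, with a median of 49881779. The ribosomal RNA locus (Yam1 and AY036118) held a share of 6.29% to 27.7% of them. The 9 luminal epithelial marker genes were detected in every tumor and summed to between 2700 and 4453 CPM, against 35.3 to 90.1 CPM for 7 basal, 200.1 to 343 CPM for 12 leukocyte, 636 to 2342 CPM for 8 fibroblast, 55.4 to 130.7 CPM for 7 endothelial and 5.73 to 54.7 CPM for 6 adipocyte genes. Of the basal genes Krt5 and of the adipocyte genes Plin1, Lep and Retn were at 0 counts in some tumors. The 5 nuclear-retained RNAs summed to 1707 to 5811 CPM. CPM are counts relative to TMM-scaled library totals. In bulk tissue, fewer cells of a type and less RNA per cell cannot be told apart.

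Windows of RefSeq (GRCm38.p6) that reach from 250 bases before to 50 bases after a transcription start were found for 7 of the 10 genes, as 8 windows, and not for Ccnd1, Ccnd2 or Myc. They were searched for the E-box CACGTG, the letters to which Myc and Max bind, and for the E2F letters TTTGGCGC on both strands (GCGCCAAA on the other strand). Shown are the windows of Cdk4 and Mycn, which held the most matches, and that of Max, the partner of Myc, which held 1 match as that of Cdk6 did. Capitals mark the matches.
Cdk4, chr10:127063285-127063584, plus strand: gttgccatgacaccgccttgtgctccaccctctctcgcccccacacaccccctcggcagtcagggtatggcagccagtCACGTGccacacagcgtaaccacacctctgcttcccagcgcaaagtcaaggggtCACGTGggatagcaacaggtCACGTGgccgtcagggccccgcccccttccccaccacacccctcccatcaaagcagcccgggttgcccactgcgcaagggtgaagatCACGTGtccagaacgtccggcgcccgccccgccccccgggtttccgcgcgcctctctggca
Max, chr12:76962199-76962498, minus strand: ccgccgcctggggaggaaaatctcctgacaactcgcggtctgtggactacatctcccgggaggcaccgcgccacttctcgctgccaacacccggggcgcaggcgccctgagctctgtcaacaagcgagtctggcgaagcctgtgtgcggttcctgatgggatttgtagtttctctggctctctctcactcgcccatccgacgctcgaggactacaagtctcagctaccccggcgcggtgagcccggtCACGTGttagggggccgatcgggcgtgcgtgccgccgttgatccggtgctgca
Mycn, chr12:12941787-12942086, minus strand: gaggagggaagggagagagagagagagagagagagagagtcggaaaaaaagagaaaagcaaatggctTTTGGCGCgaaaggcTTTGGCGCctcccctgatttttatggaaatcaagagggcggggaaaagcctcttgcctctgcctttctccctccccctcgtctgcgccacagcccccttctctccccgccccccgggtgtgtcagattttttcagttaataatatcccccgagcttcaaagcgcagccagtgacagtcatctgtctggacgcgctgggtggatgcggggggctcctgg
The Cdk4 window held 4 E-boxes, which began 172, 118, 98 and 11 bases before the start, and 8 of 32851 windows (0.0244%) held 4 or more. The Max window held 1 E-box that began 3 bases before the start, and the Cdk6 window held 1 that began 220 bases before it. Of all windows, 2349 (7.15%) held an E-box. Mycn held the E2F letters at 2 places, 183 and 168 bases before the start, and 169 of 32851 windows (0.514%) held them. The windows of Ccnd3, Cdkn1b and Mycl held neither. A match describes the letters of a window and shows no binding.

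Ccnd1 was the most abundant of the 10 mRNAs and Mycl the least. On a scale per length (RPKM, counts divided by listed length and total count), the mean level of Ccnd1 was 126.7 ± 35.2 (SD, n = 20), that of Cdk4 61.8 ± 8.33, that of Max 28.0 ± 2.11 and that of Myc 25.2 ± 3.31. Cdkn1b followed at 16.8 ± 2.18 RPKM and Ccnd3 at 7.55 ± 1.11 RPKM. Mycn (1.59 ± 0.454 RPKM), Ccnd2 (1.58 ± 0.359 RPKM) and Cdk6 (0.945 ± 0.183 RPKM) were low, and Mycl had 0.0970 ± 0.0673 RPKM. On listed lengths the ranges of Ccnd1, Cdk4 and Max did not overlap. With the union of annotated exons as length those of Ccnd1 (lowest 71.9 RPKM) and Cdk4 (highest 80.1 RPKM) did, although Ccnd1 exceeded Cdk4 in 20 of 20 tumors. On listed lengths Max exceeded Myc in 17 of 20 tumors and Mycn exceeded Ccnd2 in 10 of 20, so that neither pair was ordered beyond its spread. Myc exceeded Cdkn1b in all 20 tumors although their ranges overlapped. The listed length of Cdk6 (3735 bases) is far shorter than the union of its GENCODE M21 exons (13989 bases), and with the union Cdk6 had 0.252 ± 0.0489 RPKM. With union lengths Max (15.6 ± 1.18 RPKM, highest 17.8) lay below Myc (lowest 19.4) without overlap, and fell below Cdkn1b in 14 of 20 tumors. Ccnd2 had 0.955 ± 0.218 RPKM, and Mycn exceeded it in 17 of 20 tumors.

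**Figure D1:**
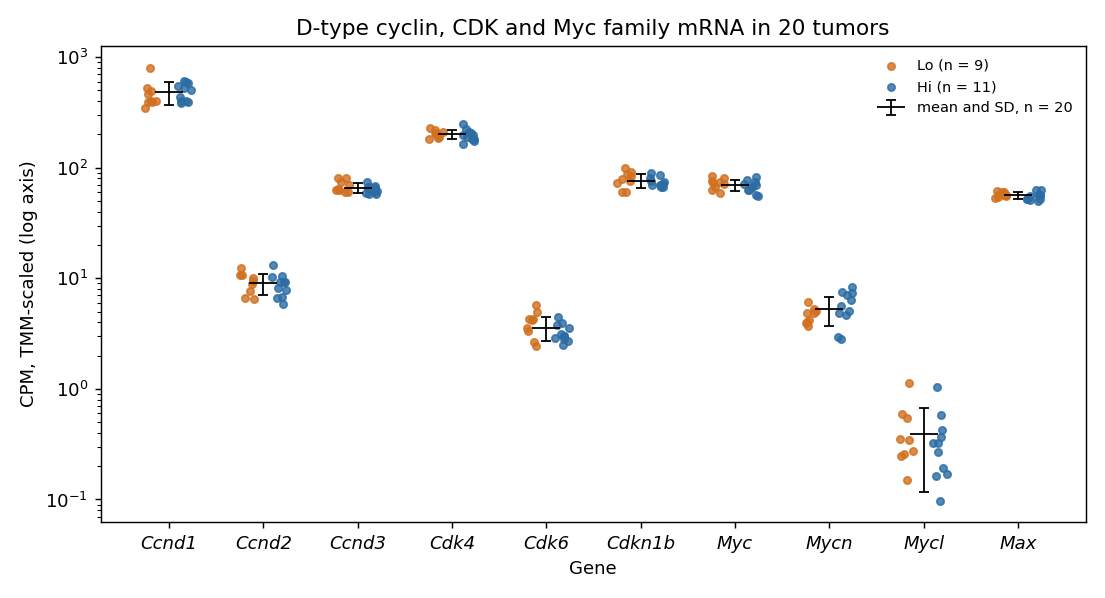
CPM on a log axis of the 10 genes (x axis) in each tumor, Lo in orange (n = 9) and Hi in blue (n = 11), with the mean and SD over 20 tumors in black. Lo and Hi overlap for every gene; Ccnd1 of tumor 4 (804 CPM) lies above all other tumors, and Mycl spreads most, from 0.0977 to 1.14 CPM.

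Within each family 1 gene made up nearly all of the mRNA. Ccnd1 accounted for 93.0% ± 1.11 (SD, n = 20) of D-type cyclin RPKM, with Ccnd3 at 5.75% ± 0.938 and Ccnd2 at 1.21% ± 0.303. Myc accounted for 93.7% ± 1.76 of Myc family RPKM and Mycn for 5.94% ± 1.82, with a range for Mycn from 3.72% in tumor 5 to 11.3% in tumor 7. Cdk4 accounted for 98.5% ± 0.349 of the RPKM of both kinases. The D-type cyclins together had 2.16 ± 0.441 times the RPKM of the kinases, from 1.55 in tumor 1 to 3.20 in tumor 4, and 8.18 ± 2.23 times that of the inhibitor Cdkn1b, from 5.20 in tumor 2 to 12.8 in tumor 4. These ratios are on listed lengths, and on union lengths they were 1.79 ± 0.362 and 6.73 ± 1.82. Myc family RPKM was 0.962 ± 0.103 times that of Max on listed lengths and 1.76 ± 0.189 times on union lengths. The shares of Ccnd1, Myc and Cdk4 lay above 88% in every tumor on either length.

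Ccnd1 (ENSMUSG00000070348, chr7:144929931-144939869, minus strand), which encodes cyclin D1, had 349 CPM in its lowest tumor, a median of 449 and 804 in its highest. Tumor 4, a Lo tumor, stood above the next tumor, tumor 19, which had 605 CPM. The mean was 481 ± 110.1 CPM (SD, n = 20), and 464 ± 81.7 over the 19 tumors without tumor 4. Its level rested on 13713 to 41301 counts per tumor, and the SD of its log2 CPM (0.30) exceeded the counting error (0.01). That SD was higher than that of 59.6% of the genes tested.

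Ccnd2 (chr6:127125779-127151048, minus strand), which encodes cyclin D2, ranged from 5.89 to 13.2 CPM with a median of 9.18. Its highest tumors were tumor 6 (Hi) and tumor 14 (Lo, 12.3 CPM) and its lowest was tumor 22. Ccnd3 (chr17:47505051-47599691, plus strand), which encodes cyclin D3, ranged from 57.7 to 80.7 CPM with a median of 64.6, and tumors 4 and 17 were the highest. Ccnd2 spread more than Ccnd3, with an SD of log2 CPM of 0.32 against 0.15.

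Cdk4 (chr10:127063534-127067920, plus strand), the abundant kinase partner, ranged from 165 CPM in tumor 7 to 248 in tumor 18 with a median of 200.5. Cdk6 (chr5:3343893-3523218, plus strand) ranged from 2.43 to 5.73 CPM with a median of 3.45, and tumor 1 was the highest. Cdkn1b (chr6:134920401-134925513, plus strand) ranged from 59.9 CPM in tumor 13 to 99.3 in tumor 2 with a median of 74.7. Cdk4 was among the steadier genes, with an SD of log2 CPM (0.14) above that of 14.6% of genes tested, whereas Cdk6 (0.34) lay above 64.7%. The counting error was 0.01 for Cdk4 and 0.11 for Cdk6, and genes of all levels were ranked together.

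Myc (chr15:61985341-61990374, plus strand) ranged from 55.0 CPM in tumor 7 to 84.9 in tumor 1 with a median of 70.5. Mycn (chr12:12936096-12941914, minus strand) ranged from 2.81 to 8.38 CPM with a median of 4.96, the highest again in tumor 7 and the lowest in tumor 19. Tumor 7 thus had the lowest Myc and the highest Mycn of the 20 tumors, while over all tumors their Pearson's r was 0.17. Mycl (chr4:122995652-123002485, plus strand) rested on 6 to 60 counts per tumor, and its range from 0.0977 to 1.14 CPM came with a counting error of 0.39 in log2, beside an SD of 0.80. Max (chr12:76937269-76962248, minus strand) was the steadiest of the 10, at 50.3 to 62.6 CPM, and its SD (0.10 in log2) exceeded that of 1.85% of the genes tested.

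Lo and Hi tumors were compared since they are the only groups the sample names give. None of the 10 genes differed between Lo and Hi. The largest differences were those of Mycn, at 4.68 ± 0.786 CPM in Lo and 5.68 ± 1.83 CPM in Hi (log2 fold change of -0.28 Lo over Hi, SE 0.174, 95% interval -0.64 to 0.08), Mycl (0.27, SE 0.387) and Cdk6, at 3.93 ± 1.06 CPM in Lo and 3.27 ± 0.600 CPM in Hi (0.27, SE 0.145, interval -0.03 to 0.57). The smallest adjusted p of the 10 was 0.960 (Cdk6, edgeR's quasi-likelihood test). Ccnd1 had a difference of -0.06 with an interval from -0.34 to 0.22. Of all genes 0% were called, 0 of 18883, with 1045 (5.53%) at an unadjusted p under 0.05 in edgeR and 1 called by DESeq2. For the 10 genes the count at an unadjusted p under 0.05 was 0.

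Each gene was next used as a covariate across the 20 tumors, to ask which other genes moved with it. Values are log2 changes per SD of the covariate, and a pair of the 10 was called where both fits passed an adjusted p of 0.05. None of the 45 pairs was called by edgeR, although 7 of the single fits between them had an unadjusted p under 0.05. Over all genes the 10 fits called between 0% and 3.34%, and 1000 to 3736 genes had an unadjusted p under 0.05. The pair with the strongest relation was Ccnd3 and Cdk4, with r = 0.63 (permutation p = 0.00281) and Spearman's rho = 0.65 (permutation p = 0.00251), 0.64 when the 2 tumors farthest out in Ccnd3 were removed, 0.64 within Lo and 0.69 within Hi. The adjusted p over all genes was 0.0958 with Ccnd3 as covariate and 0.0684 with Cdk4.

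Ccnd2 and Mycl followed with r = 0.58 (permutation p = 0.00716, rho = 0.57 with permutation p = 0.00959, 0.54 without 2 tumors), and both members of the pair missed the threshold (edgeR adjusted p = 0.151 and 0.822). Ccnd1 and Ccnd3 had r = 0.52 (permutation p = 0.0191, rho = 0.35 with permutation p = 0.125), which was 0.33 without tumor 4, the highest tumor for both. Mycn and Mycl had r = -0.48 (permutation p = 0.0316, rho = -0.55 with permutation p = 0.0133), but -0.06 within Lo and -0.63 within Hi. Myc and Max, partners in DNA binding, had r = 0.35 (permutation p = 0.135, 0.18 without 2 tumors), but -0.24 within Lo and 0.57 within Hi. Ccnd1 and Myc had r = -0.08.

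**Figure D2:**
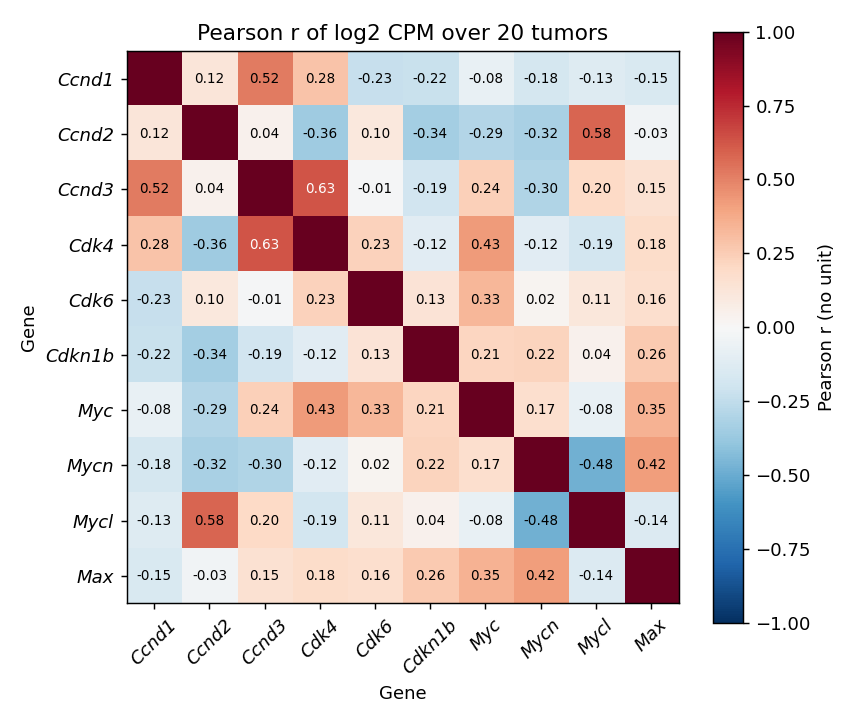
Pearson's r (no unit, color scale from -1 to 1) of log2 CPM over 20 tumors between each pair of the 10 genes. The highest value is that of Ccnd3 and Cdk4 (0.63) and the lowest that of Mycn and Mycl (-0.48); none of the 45 pairs was called by edgeR.

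With Ccnd1 as covariate 25 of 18882 genes (0.132%) were called, 21 rising (0.111%) and 4 falling. Of 140 genes on 15 lists of partners, targets and cell types, 2 rose with Ccnd1. Odc1, the enzyme that starts polyamine synthesis and a known Myc target, rose by 0.43 per SD (SE 0.101, r = 0.78 with permutation p = 0.00012, adjusted p = 0.00954), from 47.1 CPM in tumor 3 to 219 in tumor 20. Cdkn1a, which encodes the inhibitor p21, rose by 0.50 per SD (r = 0.75 with permutation p = 2e-04, adjusted p = 0.0156), from 31.7 CPM in tumor 3 to 239 in tumor 4. Tumor 4 was highest for both Ccnd1 and Cdkn1a. Without tumor 4 r was 0.70 for Odc1 and 0.60 for Cdkn1a and neither was called (edgeR adjusted p = 0.180 for Odc1 and 0.662 for Cdkn1a), and 1 gene in all was called. None of the 14 S-phase genes was called with Ccnd1, 7 of them had positive slopes, and their median slope was 0.00 against 0.00 over all genes.

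The gene most like Ccnd1 was Oraov1 (now Lto1), which lies next to it on the opposite strand, with r = 0.96 over 20 tumors and 0.94 without tumor 4. Oraov1 ranged from 99.1 CPM in tumor 9 to 242 in tumor 4, where the next tumor had 183. In GENCODE M21 the exons of both genes share 1100 bases, and the strand setting of the counting is not given in the sources used here, so that reads of this stretch cannot be told apart. The next most like genes were Gm17709 (r = 0.85) and Mmp2, a gelatinase of the stroma (r = 0.83). In tumor 4, Ccnd1 lay 0.84 above its median in log2 CPM and Oraov1 1.01 above. Of the 10 tested genes within 1 Mb of Ccnd1, Oraov1 was above the range of the other 19 tumors in tumor 4 and Ano1 (-0.24) was below it. The other 8, which include Fadd (0.07), Ppfia1 (0.00), Cttn (-0.20) and Tpcn2 (0.27), lay within it, and the median of the 10 was -0.01. Exon sharing also touches Cdk4 and Tspan31 (641 bases), Ccnd3 and Bysl (361), Cdk6 and Gm17590 (368), and Ccnd2 and the antisense genes Gm43126 (372) and 9330179D12Rik (368).

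**Figure D3:**
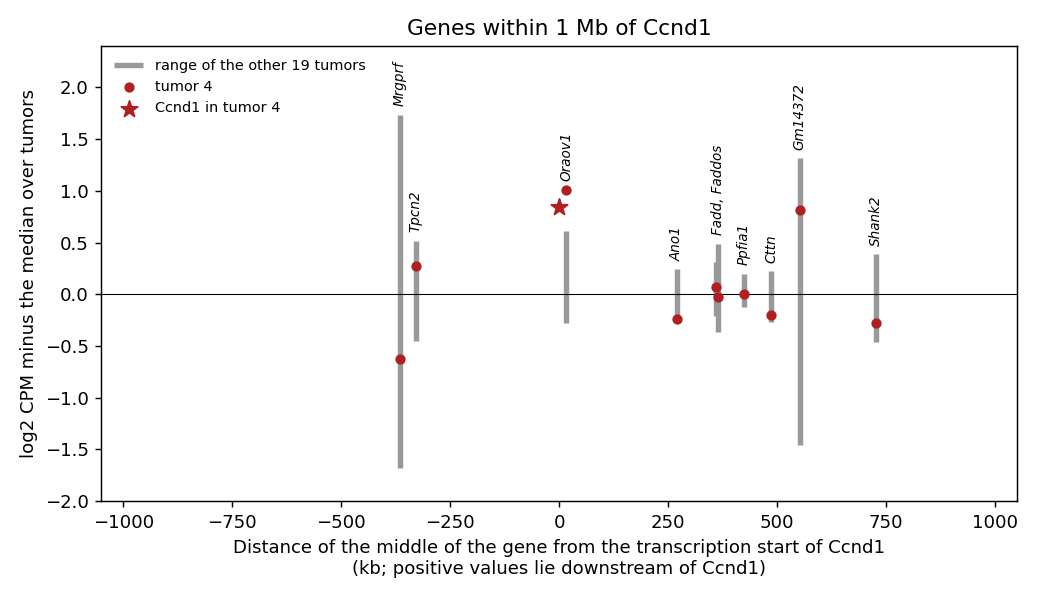
log2 CPM minus the median over tumors (y axis) of the genes within 1 Mb of Ccnd1 against the distance of their middle from its transcription start in kb (x axis), for tumor 4 (red points, star for Ccnd1) and as the range of the other 19 tumors (gray lines). Oraov1 (1.01) lies above the gray range beside Ccnd1 (0.84), and the genes farther away are near 0 or within their range, apart from Ano1 (-0.24).

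Ccnd2 rose with fibroblast genes. Against a fibroblast score, the mean z-score of 8 fibroblast genes, Ccnd2 rose by 0.26 per SD (SE 0.047, adjusted p = 0.00321, edgeR), with r = 0.80 (permutation p = 4e-05) and rho = 0.79 (permutation p = 0.00013). The relation was 0.91 within Lo and 0.74 within Hi, and it stayed called without each of the 20 tumors in turn (adjusted p from 0.00132 to 0.0186). Without the 2 tumors with the most extreme scores r was 0.72 and the adjusted p 0.0717. This score called 1.89% of all genes, 1.81% rising. By edgeR on counts of all 20 tumors it was the only call among 120 relations of the 10 genes with 12 scores, while 8 were called on log2(RPKM + 1) and 0 when the 2 tumors farthest out in each score were removed. The others called 0.763% of all genes (S phase), 1.09% (mitosis), 0.286% (Myc targets), 0.117% (immediate-early genes), 4.99% (luminal), 0.0265% (basal), 3.02% (leukocyte), 1.14% (endothelial), 0.09% (adipocyte), 16.7% (nuclear-retained RNA) and 0.132% (ribosomal RNA locus). With Ccnd2 itself as covariate 71 of 18882 genes (0.376%) were called, 66 of them rising (0.35%).

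Of the 8 fibroblast genes, all had positive slopes with Ccnd2, with a median of 0.32 against 0.00 over all genes, and 2 rose. They were Lum, which encodes the matrix proteoglycan lumican (0.52 per SD, SE 0.087, adjusted p = 0.0125), and the collagen gene Col1a2 (0.36, SE 0.068, adjusted p = 0.0240), and Pdgfra just missed the threshold (0.28, adjusted p = 0.0507). Lum was lost without tumor 14 and Col1a2 without tumor 2, 14 or 22. The basal keratin gene Krt14 was called too (1.61 per SD, adjusted p = 0.0496), but its r was 0.31 and rho -0.07, it ranged from 0.0776 CPM to 21.7 CPM in tumor 6, with 6.53 CPM in the next tumor, and the call was lost without any of 18 tumors. The genes most like Ccnd2 were Cdh11, a cadherin of mesenchymal cells (r = 0.91), Slit2 (0.89) and Fam198b (0.88). Fibroblast markers summed to 636 to 2342 CPM in Lo and 710.4 to 1883 CPM in Hi, and their part in the level of Ccnd2 was not tested. Markers of other cell types had positive slopes with Ccnd2 as well, in 7 of 7 endothelial (median 0.19), 10 of 11 leukocyte (median 0.12) and 6 of 7 basal genes (median 0.20), of which Krt14 alone was called. The fibroblast score itself had r = 0.69 with the endothelial, 0.61 with the basal and 0.52 with the leukocyte score, and the part of these cell types was not tested. Ccnd1 and Ccnd3 had median slopes of 0.04 and -0.06 over the 8 fibroblast genes, with none called. Cdkn1b went the other way, with r = -0.53 against the fibroblast score (permutation p = 0.0161, rho = -0.54, -0.24 without 2 tumors), and did not pass the adjusted threshold.

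With Ccnd3 as covariate 401 of 18882 genes (2.12%) were called, 257 rising (1.36%) and 144 falling. Among the inhibitors and Rb partners 3 of 17 rose, and no other listed gene was called. They were E2f1, the first of the E2F activators (0.22 per SD, SE 0.057, r = 0.67, adjusted p = 0.0359), Ccne1, which encodes cyclin E1 of the next step of the cycle (0.34, r = 0.76, adjusted p = 0.0139), and Cdkn1a (0.46, r = 0.66, adjusted p = 0.0147). All 3 were highest in tumor 4, with 21.5, 12.9 and 239 CPM. E2f1 was also lost without tumor 2, 7, 13 or 18. Without tumor 4 none of the 3 was called (edgeR adjusted p = 0.203, 0.101 and 0.168) and 15 genes were called in all. Of the S-phase genes 12 of 14 had positive slopes with a median of 0.08 against 0.00 over all genes, and none was called. The genes most like Ccnd3 were Psrc1 (r = 0.89), Ube2v1 (0.86) and Fam110a (0.86).

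With Cdk4 as covariate 630 of 18882 genes (3.34%) were called, 473 rising (2.51%) and 157 falling (0.831%). Of the 140 listed genes 15 rose and 3 fell. All 14 S-phase genes had positive slopes, with a median of 0.15 against -0.01 over all genes, and 5 rose. These were Mcm2, Mcm5 and Mcm7 of the replicative helicase, Pcna, the sliding clamp, and Rrm2 of ribonucleotide reductase. Pcna ranged from 55.7 CPM in tumor 7 to 115 in tumor 1 and rose by 0.17 per SD (SE 0.039, r = 0.71 with permutation p = 0.00057, adjusted p = 0.0199). Mcm5 ranged from 46.0 CPM in tumor 7 to 87.1 in tumor 1 (0.17 per SD, r = 0.72, adjusted p = 0.0178). Of the 11 mitosis genes all had positive slopes and 2 rose, Aurka (0.21, adjusted p = 0.0364) and Cdk1 (0.19, adjusted p = 0.0327). Ccne1 (0.31, adjusted p = 0.0218) and Cks1b, a cofactor of the ligase that degrades p27 (0.14, adjusted p = 0.0443), rose as well. The call of Cks1b was lost without any of 13 tumors, that of Mcm2 without any of 8 and that of Aurka without any of 7. Those of Cdk1 and Rrm2 were each lost without any of 6. Pcna was lost without tumor 7, Mcm7 without tumor 18, and Mcm5 and Ccne1 without either.

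All 16 Myc targets had positive slopes with Cdk4 (median 0.09) and none was called. The S-phase score itself had r = 0.70 with Cdk4 (permutation p = 0.00052, rho = 0.61 with permutation p = 0.00501, 0.61 without 2 tumors, 0.65 within Lo and 0.71 within Hi), and its adjusted p in edgeR was 0.0793. The leukocyte score had r = -0.51 with Cdk4 (permutation p = 0.0216, rho = -0.45, adjusted p = 0.210), and 2 of 11 leukocyte genes had positive slopes. Its part in these relations was not tested.

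Cdk4 was also related to listed genes outside the cell cycle lists. Erbb4, a receptor of the Her2 family, fell by 0.57 per SD (SE 0.099, adjusted p = 0.00626), with r = -0.79 (permutation p = 3e-05), rho = -0.78 (permutation p = 7e-05), -0.79 without 2 tumors, -0.90 within Lo and -0.76 within Hi. It ranged from 2.62 CPM in tumor 1 to 16.7 in tumor 6, where Cdk4 had 228 and 173 CPM. Its slope stayed between -0.61 and -0.49 without each tumor in turn, with adjusted p from 0.00228 to 0.0217, but the call was lost when the 2 tumors farthest out in Cdk4 were removed together (adjusted p = 0.0572). The other 3 receptors were not called, and had 59.2 ± 12.2 CPM (Egfr), 196 ± 21 (Erbb2, whose counts were not separated here from reads of the rat transgene) and 378 ± 31.7 (Erbb3).

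Mxd3, which competes with Myc for Max, rose by 0.18 per SD of Cdk4 (SE 0.032, r = 0.82 with permutation p = 4e-05, 0.41 within Lo and 0.93 within Hi, adjusted p = 0.00680), from 18.2 CPM in tumor 6 to 32.8 in tumor 20. Trp63, the p63 factor of basal cells, fell by 0.39 per SD (SE 0.082, r = -0.75, adjusted p = 0.0141), from 4.44 CPM in tumor 19 to 1.48 in tumor 20. Both stayed called without each tumor in turn, but were lost when the 2 tumors farthest out in Cdk4 were removed together (adjusted p = 0.0998 for Mxd3 and 0.0649 for Trp63), as were all 27 calls between one of the 10 genes and a listed gene when its 2 farthest tumors were removed. Krt18, a luminal keratin, rose (0.20, adjusted p = 0.0286) and was lost without tumor 1, 6, 7 or 9. Krt14 fell (-1.82, adjusted p = 0.0225), was highest in tumor 6 (21.7 CPM), and was lost without that tumor. Of the basal genes 2 of 7 fell with Cdk4 and 3 of 7 had positive slopes, and of the luminal genes 1 of 9 rose and 6 of 9 had positive slopes.

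Of the 9 immediate-early genes, which respond within minutes to signals and to handling of tissue, 4 rose with Cdk4. They were Fos (0.68 per SD, adjusted p = 0.0319), Egr1 (0.43, adjusted p = 0.0242), Zfp36 (0.32, adjusted p = 0.0357) and Ier2 (0.21, adjusted p = 0.0103). Tumor 18, the highest for Cdk4, was also the highest for 8 of the 9, with 389 CPM of Fos and 487 CPM of Egr1. All 4 calls were lost without tumor 18, and the r of Fos with Cdk4 was -0.03 within Lo and 0.81 within Hi. In all, 12 of the 18 listed calls of Cdk4 were lost without tumor 18 and 10 without tumor 7, the lowest tumor. The number of genes called fell to 172 without tumor 7 and 254 without tumor 18. The genes most like Cdk4 were Prmt1, an arginine methyltransferase (r = 0.90), the ribosomal protein gene Rpl6 (0.90) and Nt5dc2 (0.89).

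**Figure D4:**
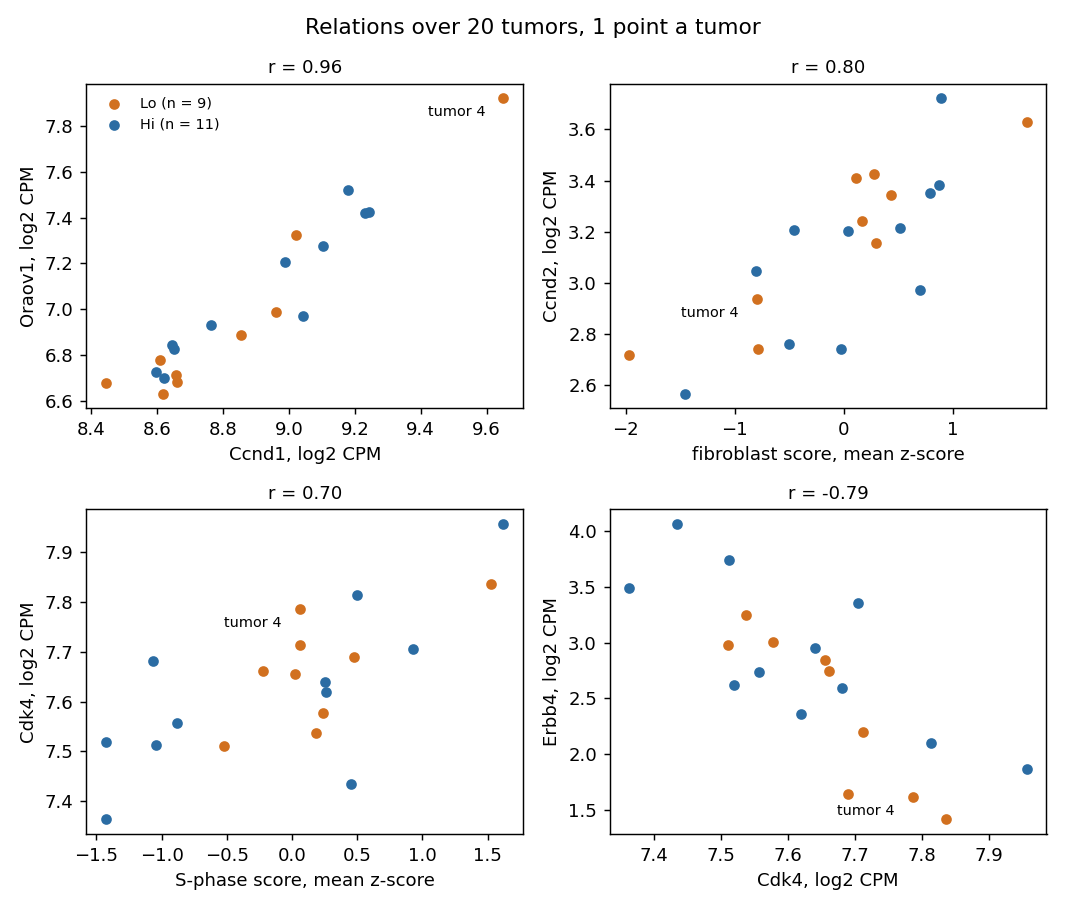
Log2 CPM and scores (mean z-score) of 20 tumors, 1 point a tumor, Lo in orange (n = 9) and Hi in blue (n = 11), with tumor 4 named and Pearson's r above each panel. Oraov1 follows Ccnd1 (r = 0.96), Ccnd2 rises with the fibroblast score (0.80), Cdk4 rises with the S-phase score (0.70) and Erbb4 falls with Cdk4 (-0.79).

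With Cdk6 as covariate 23 of 18882 genes (0.122%) and none of the 140 listed genes were called. All 14 S-phase genes (median slope 0.10) and all 11 mitosis genes (0.13) had positive slopes, against a median of 0.00 over all genes. Cdk6 also had r = 0.69 with the share of the ribosomal RNA locus (permutation p = 9e-04, rho = 0.58 with permutation p = 0.00843, 0.78 within Lo and 0.25 within Hi; edgeR adjusted p = 0.167), and the part of that share in the slopes was not tested. The genes most like Cdk6 were Utrn (r = 0.81), Apol7d (0.78) and Pcdh18 (0.76). With Cdkn1b 0% of genes were called by edgeR, although 1799 had an unadjusted p under 0.05, and 1 of 14 S-phase genes had a positive slope (median -0.05). The mitosis genes went the other way, with positive slopes in 8 of 11 (median 0.05). Among the most like were Ahnak (r = 0.82) and Fnip1 (0.80).

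With Myc as covariate 0% of genes were called by edgeR, with 1353 of 18882 at an unadjusted p under 0.05. All 14 S-phase genes (median 0.06) and all 11 mitosis genes (median 0.06) had positive slopes with Myc, and none was called. Of the 16 Myc targets 15 had positive slopes too, with a median of 0.06 against 0.00 over all genes, and none was called. The nearest were Gnl3, which encodes nucleostemin (0.09 per SD, SE 0.033, r = 0.57, adjusted p = 0.556), and Cad, the first enzyme of pyrimidine synthesis (0.12, SE 0.057, r = 0.41, adjusted p = 0.670), each with an unadjusted p under 0.05. The score of the targets had r = 0.40 with Myc (permutation p = 0.0799, rho = 0.26 with permutation p = 0.264) and 0.15 without 2 tumors, against 0.60 with Cdk4 (permutation p = 0.00541, rho = 0.56 with permutation p = 0.0116) and 0.30 without 2 tumors. This difference between Myc and Cdk4 was not tested. The score of the targets also had r = 0.74 with the S-phase score, whose part was not tested. Myc itself ranged over no more than 55.0 to 84.9 CPM. The genes most like Myc were Tfap4, itself a known Myc target (r = 0.77), Sh2b2 (0.71) and 4930581F22Rik (0.70).

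With Mycn 184 of 18882 genes (0.974%) were called, 135 rising and 49 falling (0.26%). Of the listed genes 1 fell and none rose. It was E2f2, another E2F activator (-0.23 per SD, SE 0.050, r = -0.74 with permutation p = 0.00021, rho = -0.64, adjusted p = 0.0242), which ranged from 4.17 CPM in tumor 21 to 10.8 in tumor 19, the tumor with the lowest Mycn. The call was lost without tumor 5, 19 or 21. None of the 11 mitosis genes and none of the 14 S-phase genes had a positive slope with Mycn, with medians of -0.12 and -0.06 against 0.00 over all genes, and none was called. The genes most like Mycn were Scamp5 (r = 0.91), Akr1c13 (0.84) and the adenylate cyclase gene Adcy8 (0.84).

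With Mycl and with Max as covariates 0% of genes were called by edgeR, with 1000 and 3368 at an unadjusted p under 0.05. Max varied with the luminal score (r = 0.61, permutation p = 0.00453, rho = 0.46, 0.42 without 2 tumors, adjusted p = 0.103) and inversely with the score of nuclear-retained RNA (r = -0.58, permutation p = 0.00876, rho = -0.54, adjusted p = 0.0763), neither past the threshold. None of the 9 genes of the Max network was called with Myc, Mycn, Mycl or Max, and none of the 7 genes of the ligases that turn these proteins over with any of these or with Ccnd1, Ccnd2 or Ccnd3. The most like genes were Slc30a2 (0.75), Fyb (0.72) and Abhd15 (0.68) for Mycl, and Mgat2 (0.83), Map2k1, a kinase below Ras (0.81), and Abhd17c (0.79) for Max.

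The study reported a skew of expressed Chr4 alleles toward FVB and clonal loss of a Chr4 copy in every tumor it karyotyped. Clonal losses or gains of other chromosomes were occasional there. Each gene was compared here with the dosage of its own chromosome, the median log2 deviation of the other genes there from the autosomes. As each gene is set against its own median over tumors, a loss shared by all tumors does not show in the dosage. None of the 10 was called with its own chromosome by edgeR. Over all genes these fits called 5.66% (Chr4), 3.18% (Chr5), 5.89% (Chr6), 0.906% (Chr7), 0.413% (Chr10), 0.805% (Chr12), 1.69% (Chr15) and 6.91% (Chr17). Ccnd3 came closest with Chr17 (0.08 per SD, SE 0.029, r = 0.54 with permutation p = 0.0134, rho = 0.50 with permutation p = 0.0289, 0.29 without 2 tumors, adjusted p = 0.104 in edgeR). Mycl had r = 0.37 with Chr4 (permutation p = 0.112, rho = 0.48, adjusted p = 0.566), Ccnd1 a slope of 0.09 with Chr7 (adjusted p = 0.470), Myc 0.04 with Chr15 (adjusted p = 0.677) and Cdk4 0.03 with Chr10 (adjusted p = 0.797). The dosage of Chr4 varied more than the others, from -0.21 to 0.37, and next came Chr15, from -0.09 to 0.20. Chr12 ranged from -0.07 to 0.11, Chr7 from -0.09 to 0.05 and Chr17 from -0.06 to 0.08. Narrower were Chr6 (-0.03 to 0.05), Chr5 (-0.04 to 0.02) and Chr10 (-0.02 to 0.03). Outside Chr4 the ranges were so narrow that the fits cannot show whether a gene follows the copies of its chromosome. On Chr4 the gene was Mycl, and with 6 to 60 counts per tumor its fit cannot show this either. The dosages of Chr6 and Chr12 had r = -0.65 and -0.64 with the score of nuclear-retained RNA, whose part was not tested.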

How the data were processed

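RNA of 20 tumors was measured by RNA-seq (TruSeq mRNA kit). The authors cut reads to 100 bases and placed them on mm10 with TopHat2 2.0.12 (MapRseq), and featureCounts 1.4.4 is named in the submitters' processing notes. The authors deposited raw counts per gene, 1 column a tumor, with nothing pooled. The strand setting and annotation release are not given in the sources used here. RPKM was computed here from counts, total counts and listed lengths, which include non-coding exon parts. Total counts per tumor give the precision, and for some members the counting error is stated beside the spread.

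Counts were tested with edgeR 4.0.16 (filterByExpr with a minimum count of 10, TMM, quasi-likelihood test, Benjamini-Hochberg over all genes at 0.05, two-sided), DESeq2 1.42.0 as an alternative and limma 3.58.1 on log2(RPKM + 1), in R 4.3.3, on all 20 tumors. Covariates were a gene's log2 CPM (prior count 2), the dosage of a chromosome over genes with a mean of at least 5 CPM, or a list score, each scaled to SD 1. A covariate was tested against every other gene, which left 18882. Permutation p-values (two-sided, 100000 permutations) accompany Pearson's r and Spearman's rho, for 45 pairs and 120 relations with scores, and the adjusted values are those of edgeR. Plots and summaries used Python 3.11.15 with numpy 2.4.6, pandas 2.3.3, scipy 1.17.1 and matplotlib 3.10.9. Fits were tested on simulated data.

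The members and lists were chosen with earlier results of these data known. Named genes are the members, the genes of 15 lists (cyclin and Rb partners, Max network, turnover ligases, ErbB receptors, Myc targets, S phase, mitosis, immediate-early genes, 6 cell types, nuclear-retained RNA), the 3 genes most like each member by r (mean log2 CPM of 1 or more), the genes within 1 Mb of Ccnd1, which were named after their values were seen, and the ribosomal RNA locus; 1 gene of this rule is not reported here. Of 141 listed genes 140 passed the filter. Groups and replicate numbers come from the sample names, and no column lay outside the 20 tumors. Tumors came from different mice. The replicate numbers shared by Lo and Hi thus do not mark a shared mouse. Alternatives were DESeq2 size factors, no filter, a Lo or Hi term, totals without the ribosomal RNA locus, leaving out the 2 farthest tumors, and RPKM. Leaving out each tumor in turn and the GENCODE length were chosen after the data were seen.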

Additional observations from a re-analysis of the deposited data

Results flagged for a closer look

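Of the 10 genes in the 9 Lo tumors, 2 had a tumor far from the others by Dixon's criterion at 95%, where chance gives about 0.5 in 10 groups, and the 11 Hi tumors were too many for this criterion. Ccnd1 was 804 CPM in tumor 4. The Lo tumor with the next highest Ccnd1 had 520 CPM. Mycl was 1.14 CPM in tumor 17, from 60 counts, against a Lo median of 0.341 CPM.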

How the results depend on the processing

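Between Lo and Hi, 1 gene was called without the filter and 1 by DESeq2, against 0 with DESeq2 size factors, without the ribosomal RNA locus, with a replicate block on the numbers that names of both groups share and without each tumor in turn (0 to 0). The tumors came from different mice. Of 9 pairs with the same number 3 had a correlation over 0.1 (range -0.42 to 0.21), which cannot by itself show whether the numbers pair tumors. The block changed no call. Member pairs called were 3 on RPKM, members called with their own chromosome 1 on RPKM, and calls with scores 8 on RPKM and 0 without the 2 farthest tumors. The Chr4 dosage called 522 genes without tumor 19 and the fibroblast score 130 without tumor 14. Without the 2 farthest tumors the genes called were 1 with Ccnd1, 15 with Ccnd3, 4 with Cdk4, 0 with Cdk6, 21 with Mycn and 14 with Max. On log2(RPKM + 1) they were 2122 with Ccnd1 (2091 rising, 31 falling), 3878 with Ccnd3 (3841 and 37, against 257 and 144), 3223 with Cdk4 (3198 and 25, against 473 and 157), 430 with Cdk6 (9 and 421, against 11 and 12), 30 with Mycn (29 and 1, against 135 and 49) and 1331 with Max. The totals behind this RPKM were not TMM-scaled and included the ribosomal RNA locus. On this scale the share of that locus called 65 genes rising and 5477 falling, against 21 and 4 by edgeR. Median slopes over all genes were 0.05 with Ccnd1 and with Ccnd3, against -0.001 and -0.004 by edgeR. The part of that share in the RPKM calls was not tested. Without the filter the genes called were 209 with Ccnd2, 38 with Cdk6, 15 with Cdkn1b, 27 with Myc, 97 with Mycl and 42 with Max. With Lo or Hi as a term they were 141 with Ccnd3, 7 with Cdk6, 18 with Cdkn1b, 106 with Mycn and 15 with Max. Leaving out each tumor in turn gave 1 to 65 genes with Ccnd1 (lowest without tumor 4), 8 to 91 with Ccnd2 (tumor 14), 15 to 588 with Ccnd3 (tumor 4), 172 to 849 with Cdk4 (tumor 7) and 41 to 273 with Mycn (tumor 19). Of the 27 calls of listed genes, 27 held with DESeq2 size factors and without the filter, 22 with a Lo or Hi term, 22 on RPKM and 0 without the 2 farthest tumors, where fewer tumors were fitted; 12 were lost without 1 or 2 single tumors and 12 without 3 or more. Own-chromosome slopes that were not called changed sign on RPKM for Ccnd2 (-0.0229), Cdk4 (-0.0174), Cdk6 (0.000559), Cdkn1b (-0.0463), Myc (-0.00277) and Max (-0.0207), and for Ccnd2 without the 2 farthest tumors (-0.0437), and the Lo over Hi difference of Mycl was -0.0580 to 0.565 without single tumors. The cause was not tested. The order of levels on RPKM held on totals without the ribosomal RNA locus and on TMM-scaled totals. Depth limits Mycl, at 6 counts in its lowest tumor.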

Other observations

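Ccnd1 had r = 0.04 with the S-phase score (permutation p = 0.864, rho = 0.00, edgeR adjusted p = 0.962), against 0.70 for Cdk4, and this difference between the genes was not tested. The fibroblast genes had negative slopes with Cdkn1b in 8 of 8, with a median of -0.21, with Mycn in 8 of 8, with a median of -0.14, with Cdk4 in 8 of 8, with a median of -0.08, and with Myc in 8 of 8, with a median of -0.07, and positive slopes with Mycl in 8 of 8, with a median of 0.13, and none was called.

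Myc fell with the dosage of Chr4, a chromosome on which it does not lie, by 0.11 per SD (SE 0.032, edgeR adjusted p = 0.0404, r = -0.64 with permutation p = 0.0021, rho = -0.65 with permutation p = 0.00202, -0.45 without 2 tumors, -0.64 within Lo and -0.61 within Hi). It was the only one of the 10 genes called with that dosage, which called 1068 of 18883 genes (5.66%), and it was named after its value was seen. The call was lost without any of 11 tumors. The leukocyte score had r = 0.75 with the same dosage, and its part in the relation was not tested.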
